A study of Mus musculus with 12 samples.

Results

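The transcripts of the mitochondrial genome were described in RNA-Seq libraries of U2OS cells, a human osteosarcoma cell line. The members were all 37 genes that the deposited gene table places on chromosome MT, of 58735 genes in all: 13 protein-coding genes, 2 rRNA genes and 22 tRNA genes. There were 12 libraries, 3 replicates in each of 4 groups. One group was blank cells, a pair of groups received an siRNA against the splicing factor SRSF1 (siSRSF1-2 or siSRSF1-3), and in the last the long non-coding RNA LINC01134 was overexpressed (OE-LINC01134). No library of a control siRNA or an empty vector was analysed here. In any comparison with blank, effects of lower SRSF1 or higher LINC01134 therefore cannot be told apart from those of the transfection or the reagent. The labels do not say whether replicates came from separate cultures, so p-values measure only the spread between these libraries. The labels give no dose, time or clone for any group.

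The human mitochondrial genome is a small circle that is transcribed from both strands into long precursors. The precursors are cut mainly at the tRNAs that lie between the other genes, which frees the mRNAs and the rRNAs. The mRNAs encode core subunits of respiratory complexes I, III, IV and V, whose other subunits are made from nuclear genes and imported, while complex II is wholly nuclear. Most mitochondrial mRNAs carry short poly(A) tails, the mature tRNAs carry none, and mRNA was selected with poly-T beads according to the supplementary methods, so tRNA values describe reads that fell on tRNA genes, not the amount of mature tRNA. Values are FPKM, fragment counts divided by gene length and by a library size, which compare genes per length. Whether this holds for the shortest genes, such as the tRNA genes, was not tested.

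The libraries held 26237763 to 32954539 reads on genes. SRSF1 itself was listed at 35.9, 19.8 and 20.5 FPKM in the blank libraries, 7.09, 7.46 and 7.41 FPKM with siSRSF1-2, 3.33, 6.81 and 7.90 FPKM with siSRSF1-3, and 31.8, 29.6 and 30.3 FPKM with OE-LINC01134. Every siRNA library was below every blank library, with a limma log2 fold change of -1.72 ± 0.23 (SE, adjusted p = 0.005) for siSRSF1-2 and -2.09 ± 0.38 (SE, adjusted p = 0.052) for siSRSF1-3. LINC01134 was listed at 878 to 1279 FPKM in its overexpression libraries and at 0.497 to 1.11 FPKM in the others. Of 6 markers of a mesenchymal bone tumour line, 5 were measured in every library (VIM, SPARC, RUNX2, CD44 and S100A6), while COL1A2 was at most 0.0131 FPKM. Of 8 markers of other cell types, PTPRC, CD3E, ALB, MYH7, TERT and KRT5 stayed at or under 0.337 FPKM, CDH1 reached 0.862 FPKM and EPCAM reached 2.43 FPKM.

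Some libraries stood apart from the others of their group. A chi-square per gene, which is about 1 where replicates differ by read counting alone, was between 2.13 and 3.20 for blank replicates 2 and 3, OE-LINC01134 replicates 1 and 3, and the siSRSF1-2 replicates. It was between 63.2 and 316 for every pair that held blank replicate 1 or OE-LINC01134 replicate 2 and for every pair of siSRSF1-3 replicates. In siSRSF1-3 replicates 1 and 2 the median log2 difference from the blank mean was 1.95 and 1.21 for the cytosolic ribosomal protein genes, against 0.16 in replicate 3. The deposited FPKM of these libraries were also scaled to 0.712 and 0.888 times their own read totals, against 0.990 to 1.09 times elsewhere. Several, but not all, of the results that rest on these libraries are also given without them.

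The mitochondrial mRNAs were among the most abundant transcripts of these cells. In the blank group MT-CO1, which encodes the catalytic subunit of complex IV, was the highest of all genes with 11109 ± 314 FPKM (SD, n = 3). MT-CO2 and MT-CO3, which encode the other core subunits of complex IV, followed with 9958 ± 366 and 8141 ± 909.5 FPKM. The next were MT-ATP6 of the ATP synthase with 5779 ± 1146 FPKM, and MT-ND4, MT-ND3, MT-ND2 and MT-ND4L of complex I with 5754 ± 609, 5172 ± 863, 3895 ± 576 and 3468 ± 66.2 FPKM. No nuclear gene was higher than any of these 8 mRNAs in the blank mean, since the highest, ferritin light chain, was at 3011 FPKM. The neighbours MT-ATP6, MT-ND4 and MT-ND3 in that order lay within each other's spread. MT-CYB, the cytochrome b of complex III, was at 2881 ± 134 FPKM, MT-ND1 at 1945 ± 140.1 FPKM, MT-ND5 at 1558 ± 252 FPKM and MT-ND6 at 1501 ± 238 FPKM. MT-ATP8, the short ATP synthase subunit gene (207 bases), had the lowest FPKM of the mRNAs, 444 ± 73.5 FPKM. It lies on a shared transcript with MT-ATP6, so the gap between their FPKM cannot be read as a difference in mRNA amount.

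The rRNAs were below many of the mRNAs. MT-RNR2, the 16S rRNA (MT positions 1671 to 3229 in the deposited coordinates, plus strand), was at 3032 ± 654 FPKM and MT-RNR1, the 12S rRNA (positions 648 to 1601, plus strand), at 862 ± 228 FPKM in the blank group. The source of the human coordinates is not given in the sources used here, and the build named in the labels is of mouse. According to the supplementary methods these levels follow a poly-T selection, while the labels name a SMARTer kit. The plot of the mRNAs and rRNAs by library shows the order of the genes and the spread within each group.

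**Figure D1:**
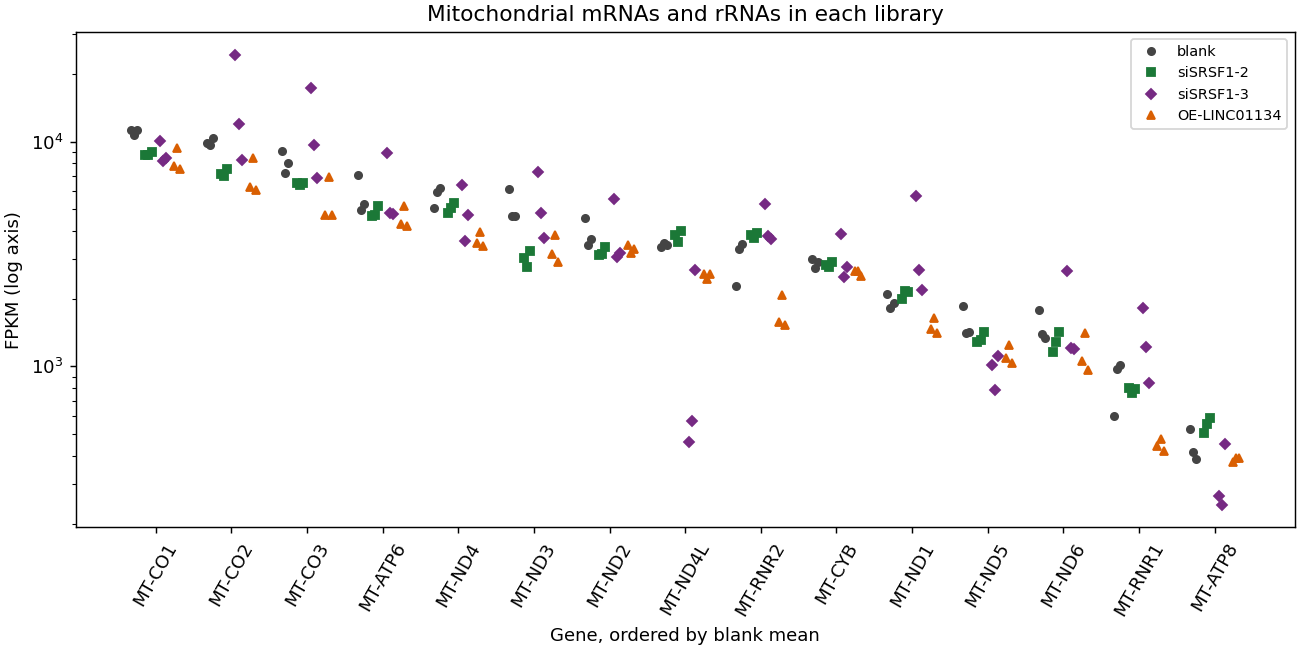
FPKM (log axis) of the 13 mitochondrial mRNAs and 2 rRNAs, one point per library, with genes ordered by their blank mean and groups by colour and symbol. As deposited, siSRSF1-3 replicate 1 is the highest library for many genes, as for MT-CO2 (24334 FPKM). Its FPKM were scaled to 0.712 times its own read total, which raises all its values. siSRSF1-3 replicates 1 and 2 fall far below the others for MT-ND4L (462 and 571 FPKM), and OE-LINC01134 libraries are lowest for both rRNAs.

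By strand, 28 of the 37 genes lie on the plus strand and 9 on the minus strand. MT-ND6 is the single minus-strand mRNA (positions 14149 to 14673), and the other 8 minus-strand genes are tRNAs. MT-ND6 amounted to 2.77%, 2.46% and 2.24% of the summed FPKM of the other 12 mRNAs in the blank libraries. The ratio was 2.39% to 2.77% with siSRSF1-2, 2.29% to 2.92% with siSRSF1-3 and 2.39% to 2.84% with OE-LINC01134. The groups overlapped in every comparison, and exact two-sided permutation tests of the log2 ratio gave p between 0.7 and 0.9. The counting is not stated to use strand, and the kit of the supplementary methods was used with no stated marking of strand, so reads from the 2 strands of a region cannot be told apart. The minus-strand genes took 1.67% to 2.17% of the mitochondrial reads in 11 libraries and 4.21% in siSRSF1-3 replicate 1.

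The tRNA genes are 59 to 75 bases long and were far more uneven. MT-TC, the cysteine tRNA gene, was the highest with 2434 ± 801 FPKM in the blank group, followed by MT-TN (asparagine) with 1346 ± 463 FPKM and MT-TP (proline) with 1295 ± 184 FPKM. All 3 lie on the minus strand, MT-TN at positions 5657 to 5729, MT-TC at 5761 to 5826 and MT-TP at 15956 to 16023. The lowest of the 22 were at a few FPKM, and the reads on one tRNA gene in one library ran from 1 to 30746. All tRNA genes together held 0.027% to 0.060% of reads in 11 libraries and 0.193% in siSRSF1-3 replicate 1.

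The mitochondrial share of all reads was 6.46%, 6.67% and 6.96% in the blank libraries. It was 5.87%, 5.86% and 6.13% with siSRSF1-2, and 4.57%, 5.30% and 4.45% with OE-LINC01134, so every library of these groups was below every blank library. With siSRSF1-3 it was 6.75%, 5.06% and 5.75%, which overlapped the blank group. The differences in mean from blank were -1.93 percentage points for OE-LINC01134 (p = 0.1), -0.747 for siSRSF1-2 (p = 0.1) and -0.846 for siSRSF1-3 (p = 0.3) in exact two-sided permutation tests. With 3 libraries against 3 the smallest possible p is 0.1, so no such test can pass 0.05, and over the 16 tests of this kind the lowest adjusted p was 0.229. The siSRSF1-3 difference was -1.30 percentage points without its replicate 1 and -0.448 without its replicate 2. A share of reads cannot tell less mitochondrial RNA from more nuclear RNA. In bulk RNA of 1 cell line, a change in some cells and a change in all cells cannot be told apart either.

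**Figure D2:**
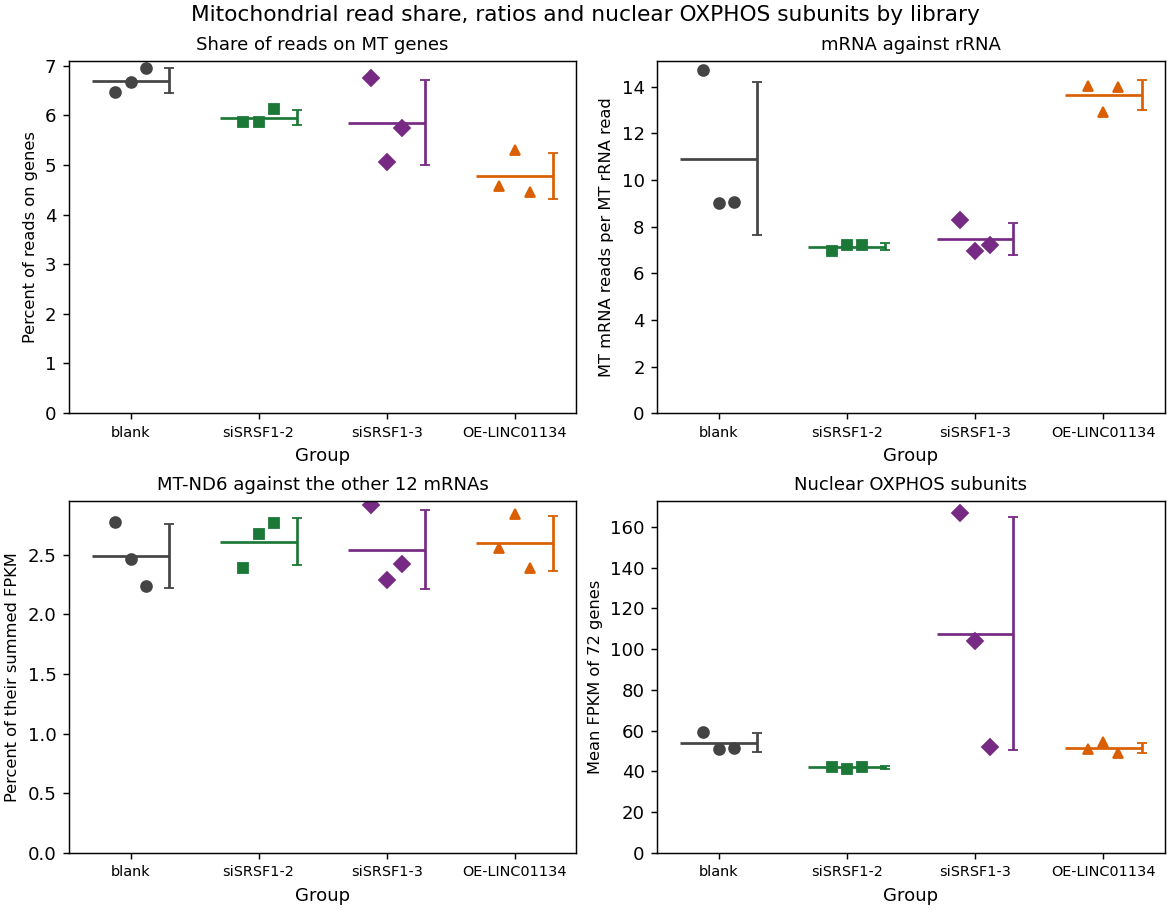
Percent of reads on mitochondrial genes, mitochondrial mRNA reads per rRNA read, MT-ND6 as a percent of the summed FPKM of the other 12 mRNAs, and the mean FPKM of 72 nuclear OXPHOS subunits, by group. Points are libraries, lines are means and bars are SD (n = 3), the read share is 4.45% to 5.30% with OE-LINC01134 against 6.46% to 6.96% in blank cells, and the nuclear subunits reach 167 FPKM in siSRSF1-3 replicate 1.

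Overexpression of LINC01134 went with lower values of nearly all mitochondrial genes, of which 1 passed the threshold. A gene passed when its limma adjusted p was below 0.05 and its level changed by more than 1 on the log2 scale in either direction, which 0.85% of the 17538 genes tested did. All 13 mRNAs and both rRNAs were lower in the mean than in blank cells, and so were 20 of 22 tRNA genes. The median log2 fold change was -0.44 for the mRNAs, with a range of -0.66 to -0.14, against 0.05 for all genes tested. Of the 37 genes, 20 had every OE-LINC01134 library below every blank library and 0 the reverse, while 30.6% of all genes tested had groups that did not overlap in one direction or the other.

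MT-TT, the threonine tRNA gene (positions 15888 to 15953, plus strand), fell with OE-LINC01134. It was at 14.6, 23.8 and 13.3 FPKM against 59.6, 42.6 and 46.8 FPKM in blank cells, from 28, 43 and 25 reads against 109, 80 and 101 reads. Its log2 fold change was -1.56 ± 0.24 (SE, limma adjusted p = 0.047), and the groups did not overlap. The call was lost without OE-LINC01134 replicate 1 or 3 or blank replicate 2 or 3, with log2 fold changes of -1.66 to -1.39, and its adjusted p ranged from 0.006 to 0.215 over the other settings. Without blank replicate 1, MT-TT and MT-RNR1 both passed, where 5.49% of all genes tested did. With a trend of log2 fold change on gene length removed, MT-TT was at -1.83.

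Both rRNAs had their lowest values in the OE-LINC01134 libraries. MT-RNR1 was at 440.3, 475 and 421 FPKM against 599.5, 973 and 1012 FPKM, a log2 fold change of -0.92 ± 0.21 (SE, limma adjusted p = 0.076). MT-RNR2 was at 1571, 2079 and 1530.3 FPKM against 2284, 3320.1 and 3492 FPKM, a log2 fold change of -0.80 ± 0.21 (SE, limma adjusted p = 0.089). No OE-LINC01134 library reached the lowest blank library, which was replicate 1 for both genes.

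Among the mRNAs, MT-ND4, a membrane subunit of complex I, had the largest difference with OE-LINC01134. It was at 3535, 3964 and 3423 FPKM against 5066, 5973 and 6223 FPKM, a log2 fold change of -0.66 ± 0.14 (SE, limma adjusted p = 0.069). MT-ND4L, whose reading frame overlaps that of MT-ND4, was at 2575, 2454 and 2568 FPKM against 3402, 3535 and 3466 FPKM (log2 fold change -0.45 ± 0.11, SE, limma adjusted p = 0.079). Both genes had groups that did not overlap. The 3 complex IV mRNAs had log2 fold changes of -0.44 for MT-CO1, -0.53 for MT-CO2 and -0.59 for MT-CO3, with every OE-LINC01134 library below every blank library and adjusted p of 0.129, 0.118 and 0.132. MT-ND3, at -0.64, MT-ND5, at -0.46, MT-ND1, at -0.37, MT-ND2, at -0.22, and MT-CYB, at -0.14, did not overlap blank either. MT-ND6, at -0.40, MT-ATP6, at -0.33, and MT-ATP8, at -0.19, did.

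By adjusted p under 0.05 alone, 1 of the 37 genes passed with OE-LINC01134, against 1.18% of all genes tested. Without OE-LINC01134 replicate 2, which stood apart from the other 2, this count was 12, all lower: MT-CO1, MT-CO2, MT-CO3, MT-ND1, MT-ND3, MT-ND4, MT-ND4L, MT-ND6, both rRNAs, MT-TP and MT-TT. In that fit 25.5% of all genes tested passed the same rule. Without blank replicate 1 the count was 6, all lower, against 13.9% of all genes tested.

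With siSRSF1-2, 3 tRNA genes passed as higher, as short nuclear genes also tended to be, while MT-CO1, MT-CO2 and MT-ND3 had an adjusted p under 0.05 and were lower by less than the fold threshold. Of the 37 genes, 3 passed the threshold, all higher and all tRNA genes, where 4.95% of all genes tested passed. By adjusted p under 0.05 alone, 7 were higher and 4 lower, which is 11 of 37 where 26.8% of all genes tested passed. At an unadjusted p under 0.05, 11 were higher and 5 lower, where 40.3% of all genes tested passed. The libraries of 17 of the 37 genes did not overlap blank, 11 higher and 6 lower, where 49.5% of all genes tested did not overlap. The median log2 fold change was -0.21 for the mRNAs and 0.49 for the tRNA genes, against 0.02 for all genes tested. It was 0.41 for the 123 nuclear genes tested that were no longer than 75 bases, the length of the longest of these tRNA genes. With a trend of log2 fold change on gene length removed over all genes, the median was -0.22 for the mRNAs and -0.0066 for the tRNA genes.

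MT-TY, the tyrosine tRNA gene (positions 5826 to 5891, minus strand, next to MT-TC and sharing 1 base with it), was at 203, 189.8 and 199 FPKM with siSRSF1-2 against 84.3, 77.8 and 76.0 FPKM in blank cells. Its log2 fold change was 1.31 ± 0.06 (SE, limma adjusted p = 0.00068), from 370 to 466 reads against 146 to 164 reads. MT-TV, the valine tRNA gene between the rRNA genes, was at 34.8, 27.5 and 35.1 FPKM against 18.8, 12.2 and 9.75 FPKM (log2 fold change 1.29 ± 0.25, SE, limma adjusted p = 0.014). MT-TD, the aspartate tRNA gene just before MT-CO2, was at 29.2, 30.9 and 22.4 FPKM against 14.3, 15.0 and 8.99 FPKM (log2 fold change 1.12 ± 0.23, SE, limma adjusted p = 0.017). In all 3 genes every siSRSF1-2 library was above every blank library. With the length trend removed the log2 fold changes were 0.79 for MT-TY, 0.79 for MT-TV and 0.61 for MT-TD, so none of the 3 kept a fold change past the threshold. MT-TV and MT-TD rest on 20 to 86 reads per library. The call of MT-TV was lost without siSRSF1-2 replicate 1 or 3, and that of MT-TD without blank replicate 3 or siSRSF1-2 replicate 1 or 2. Only MT-TY was called with each library left out in turn, and in 1 fit over all 4 groups MT-TD alone was called.

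The mRNAs with an adjusted p under 0.05 with siSRSF1-2 were all lower. MT-ND3, a small subunit of complex I, was at 3029, 2769 and 3248 FPKM against 6168, 4658 and 4689 FPKM, a log2 fold change of -0.77 ± 0.13 (SE, limma adjusted p = 0.01). MT-CO2 was at 7176, 6999 and 7583 FPKM against 9849, 9658 and 10366 FPKM, a log2 fold change of -0.46 ± 0.07 (SE, limma adjusted p = 0.0075). MT-CO1 was at 8706, 8736 and 8958 FPKM against 11271, 10748 and 11309 FPKM, a log2 fold change of -0.34 ± 0.07 (SE, limma adjusted p = 0.015). The groups did not overlap in any of the 3. MT-CO3 had a log2 fold change of -0.32 with an adjusted p of 0.054. Downstream of MT-ND3, MT-ND4L had a log2 fold change of 0.13. The arginine tRNA gene between them, MT-TR, had one of 0.42 (limma adjusted p = 0.008), or -0.11 with the length trend removed. Upstream, between MT-CO3 and MT-ND3, the glycine tRNA gene MT-TG had one of -0.31 (limma adjusted p = 0.183).

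The other mRNAs had no adjusted p under 0.05 with siSRSF1-2 as deposited. MT-ATP8 did, as higher, with FPKM rescaled to the own read total, the nuclear read total or the same sum. As deposited, the limma log2 fold changes were -0.26 for MT-ND2, -0.24 for MT-ATP6, -0.21 for MT-ND5, -0.21 for MT-ND6, -0.18 for MT-ND4, -0.02 for MT-CYB, 0.11 for MT-ND1 and 0.32 for MT-ATP8, with adjusted p of 0.12 to 0.81. MT-RNR1 was at 763 to 802 FPKM with a log2 fold change of -0.10, and MT-RNR2 at 3726 to 3923 FPKM with one of 0.36. The MT-RNR2 libraries lay above all blank libraries, those of MT-RNR1 between blank replicate 1 and the others. Without blank replicate 1, which was low for both rRNAs, 5 genes passed the threshold, adding MT-TS1 and MT-TW, where 6.77% of all genes tested passed. In that fit 22 of 37 had an adjusted p under 0.05, where 52.2% of all genes tested did.

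With siSRSF1-3 no mitochondrial gene passed the threshold in the limma fit, where 1.26% of all genes tested did. None passed the adjusted p alone, where 1.28% did, and limma's voom on the recovered reads called 0 as well. At an unadjusted p under 0.05, 4 of the 37 were higher and 1 lower, where 28.8% of all genes tested passed. Of the 37 genes, 10 had groups that did not overlap, 6 higher and 4 lower, where 37.2% of all genes tested did not overlap. The median log2 fold change of the mRNAs was -0.01, equal to that of all genes tested to 2 decimals.

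MT-ND4L (positions 10470 to 10766, plus strand), a small membrane subunit of complex I, had the largest difference among the mRNAs. It was at 462, 571 and 2683 FPKM with siSRSF1-3, all below the 3402, 3535 and 3466 FPKM of blank cells and the 3828, 3591 and 3984 FPKM of siSRSF1-2. The log2 fold change from blank was -1.96 ± 0.72 (SE, limma adjusted p = 0.139), with replicates 1 and 2 far below replicate 3. The gene passed the threshold without replicate 3 (log2 fold change -2.75) and in 1 fit over all 4 groups. With siSRSF1-3 replicate 3 alone against blank, a fit that assumes this library to vary like the blank libraries, the log2 fold change was -0.37.

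MT-ND4L is read from the same transcript as MT-ND4, and the annotated genes share 7 bases. The ratio of their FPKM was 0.672, 0.592 and 0.557 in blank cells, 0.798, 0.708 and 0.744 with siSRSF1-2, and 0.728, 0.619 and 0.750 with OE-LINC01134. With siSRSF1-3 it was 0.0722, 0.158 and 0.570. MT-ATP8 and MT-ATP6 also lie on a shared transcript, with 46 bases in common. Their ratio was 0.0743, 0.0838 and 0.0736 in blank cells, 0.108, 0.117 and 0.114 with siSRSF1-2, 0.0880, 0.0758 and 0.0922 with OE-LINC01134, and 0.0298, 0.0507 and 0.0956 with siSRSF1-3. In both pairs the shorter gene was low against the longer one in siSRSF1-3 replicates 1 and 2 and within the range of the other groups in replicate 3. With the length trend removed, the log2 fold change with siSRSF1-3 was -1.87 for MT-ND4L and -0.26 for MT-ATP8. The ratios were chosen after their values were seen and were given no test. The bar plot of the 2 ratios shows the same libraries standing apart in both.

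**Figure D3:**
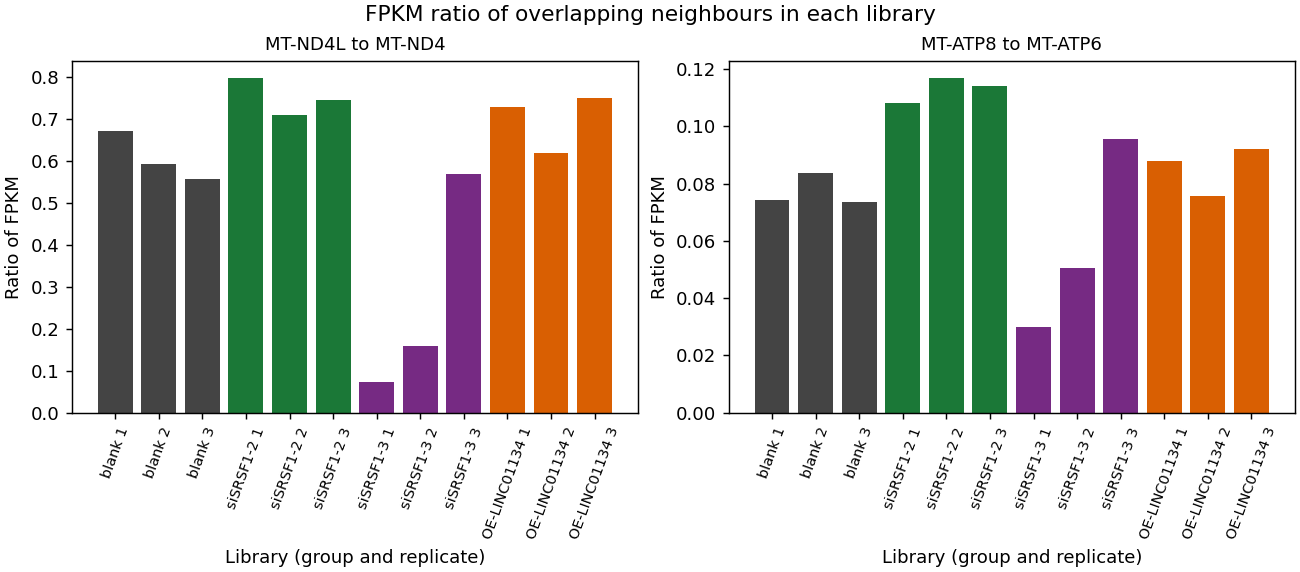
Ratio of the FPKM of MT-ND4L to MT-ND4 (left) and of MT-ATP8 to MT-ATP6 (right), one bar per library coloured by group. siSRSF1-3 replicates 1 and 2 have the lowest bars in both panels, 0.0722 and 0.158 on the left and 0.0298 and 0.0507 on the right.

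Other mRNAs moved the opposite way in siSRSF1-3 replicate 1. MT-CO2 was at 24334, 11979 and 8276 FPKM, MT-CO3 at 17291, 9658 and 6904 FPKM, and MT-ND1 at 5726, 2680.0 and 2177 FPKM. In each of these genes replicate 1 was far above all other libraries, and replicate 3 was close to the siSRSF1-2 libraries. MT-CO1, by contrast, was at 10060.2, 8217 and 8449 FPKM, so that it made up 18.9% of the mitochondrial mRNA reads in replicate 1 against 25.8% to 30.3% in the other libraries. MT-ND5, the longest mRNA, was at 1015, 783 and 1109 FPKM, below every blank library, with a log2 fold change of -0.69 ± 0.37 (SE, limma adjusted p = 0.247). The remaining mRNAs had log2 fold changes of -0.52 for MT-ATP8, -0.26 for MT-ND4, -0.03 for MT-ND2, -0.01 for MT-ND3, 0.04 for MT-ATP6, 0.05 for MT-CYB and 0.07 for MT-ND6. MT-RNR1 was at 1813, 1221 and 844 FPKM and MT-RNR2 at 5271, 3801 and 3687 FPKM, with log2 fold changes of 0.55 and 0.49.

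The tRNA genes of siSRSF1-3 replicate 1 split in both directions. MT-TC was at 23761, 4840.1 and 2318 FPKM and MT-TN at 12637, 2613 and 1329 FPKM in replicates 1, 2 and 3, against 1524 to 3031 and 813 to 1641 FPKM in blank cells. MT-TT was at 481, 146 and 71.9 FPKM, above every blank library (log2 fold change 1.80 ± 0.64, SE, limma adjusted p = 0.133). MT-TV went the other way, with 0.739, 6.84 and 30.2 FPKM from 1, 12 and 65 reads. MT-TY was at 72.6, 45.9 and 172 FPKM, so that replicate 3 alone resembled the siSRSF1-2 libraries. MT-TD was at 27.0, 26.0 and 28.3 FPKM with siSRSF1-3, a log2 fold change of 1.11 ± 0.23 (SE, limma adjusted p = 0.062). All 6 siRNA libraries were above all 3 blank libraries for MT-TD, and this was noticed after the values were seen. The values of the siRNAs did not stay close with the length trend removed, at 0.61 with siSRSF1-2 and 2.10 with siSRSF1-3. The trend ran the other way with siSRSF1-3, where the 123 short nuclear genes had a median of -1.08, and its removal moved the median of the tRNA genes from 0.08 to 1.07. The comparisons with blank share the blank libraries. Without siSRSF1-3 replicate 3, MT-TD, MT-TF, MT-TT and MT-TW passed as higher and MT-ND4L as lower, where 23.9% of all genes tested passed.

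**Figure D4:**
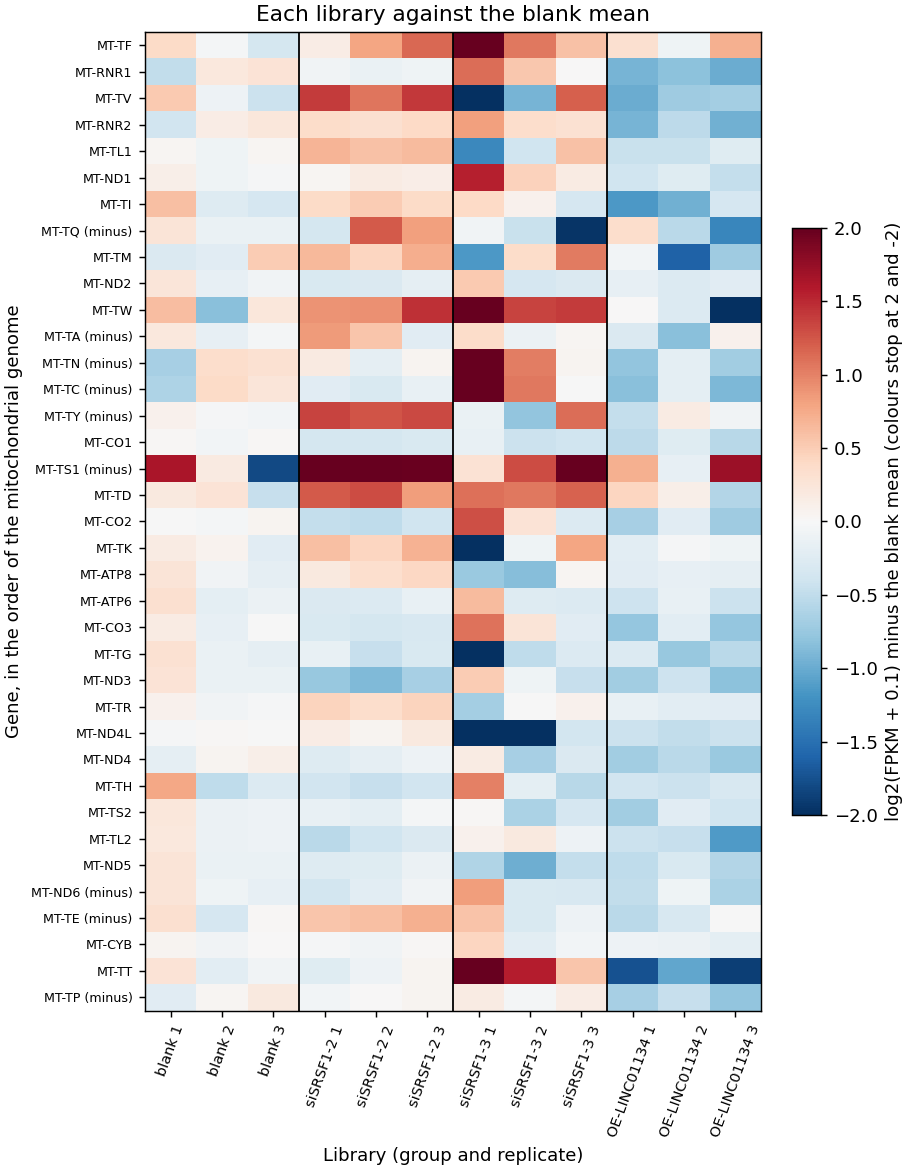
log2(FPKM + 0.1) of each of the 37 mitochondrial genes minus the blank mean, with genes in the order of the genome (minus-strand genes marked) in rows and the 12 libraries in columns. siSRSF1-2 columns look alike, siSRSF1-3 columns differ from one another with MT-TC at 23761 FPKM in replicate 1, and OE-LINC01134 columns are blue, that is lower, for nearly all genes.

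The siRNAs were also compared with each other. No mitochondrial gene passed the threshold between siSRSF1-3 and siSRSF1-2 in the limma fit, and 0 passed by voom, where 0.0855% of all genes tested passed the threshold and the same 0.0855% the adjusted p alone. At an unadjusted p under 0.05, 2 of the 37 were higher with siSRSF1-3 and 4 lower, where 42.1% of all genes tested passed. Of the 37 genes, 13 did not overlap, 8 higher and 5 lower, where 54.6% of all genes tested did not overlap. The largest difference of an mRNA was that of MT-ND4L, -2.09 ± 0.73 (SE, limma adjusted p = 0.096). Without siSRSF1-3 replicate 3 there were 8 calls, MT-TC and MT-TT higher and MT-ATP8, MT-ND4L, MT-TL1, MT-TS1, MT-TV and MT-TY lower, where 30.6% of all genes tested passed.

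**Figure D5:**
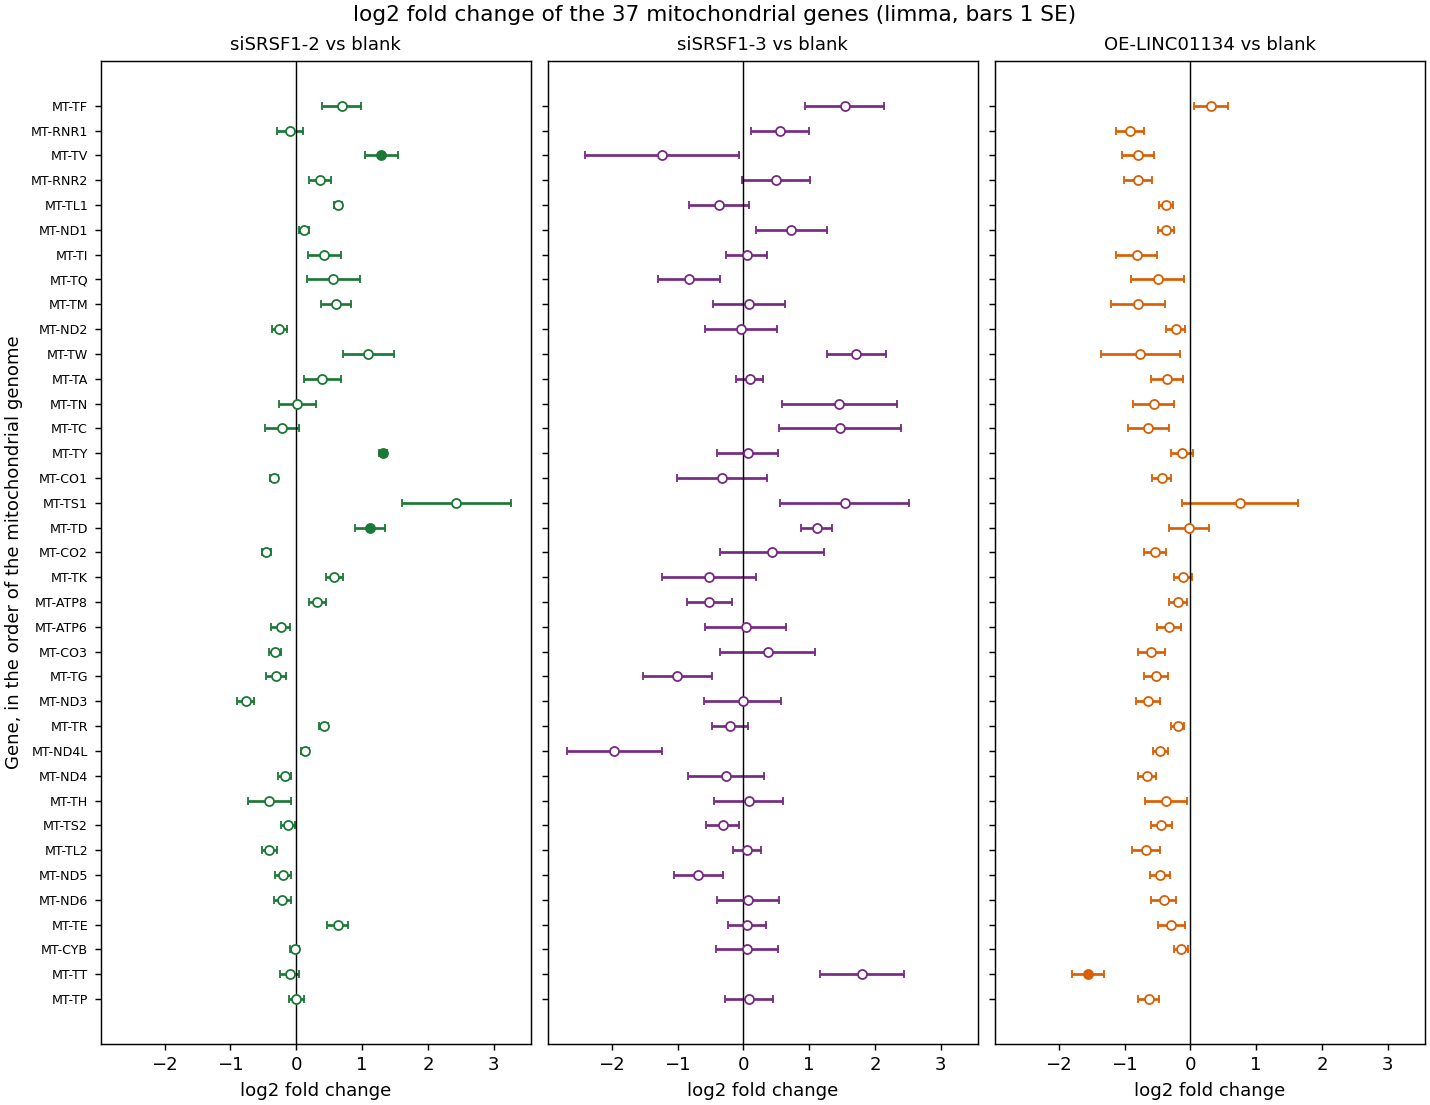
log2 fold change from blank with its SE (limma on log2(FPKM + 0.1), 3 against 3 libraries) of the 37 mitochondrial genes in genome order, one panel per group. Filled points passed the threshold, which were MT-TV, MT-TY and MT-TD with siSRSF1-2 and MT-TT with OE-LINC01134, and the bars are widest with siSRSF1-3.

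The balance of mRNA and rRNA was compared as reads. There were 14.7, 9.01 and 9.04 mitochondrial mRNA reads per rRNA read in blank cells, 6.96, 7.22 and 7.22 with siSRSF1-2, 8.27, 6.94 and 7.20 with siSRSF1-3, and 14.0, 12.9 and 14.0 with OE-LINC01134. All 6 siRNA libraries were below all blank libraries (exact two-sided permutation p = 0.1 for each siRNA, the smallest possible), and OE-LINC01134 overlapped blank (p = 0.4). Blank replicate 1 was far from the other blank libraries and inside the OE-LINC01134 values. Without it, the log2 ratio with OE-LINC01134 was 0.60 above blank, against 0.36 with it, and the siRNA differences were smaller, at -0.34 against -0.57 with siSRSF1-2 and -0.28 against -0.51 with siSRSF1-3.

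The nuclear partners of the mitochondrial subunits were set beside them, in a list of 72 subunits of complexes I, III, IV and V. The 13 mitochondrial mRNAs had a mean of 4739 ± 297 FPKM in blank cells, and the nuclear subunits one of 54.0 ± 4.63 FPKM (SD, n = 3). Per complex, the mitochondrial mean was 92.8 to 99.8 times the nuclear mean in complex I, 98.1 to 104 times in complex IV, 56.0 to 64.2 times in complex V and 32.5 to 36.3 times in complex III over the blank libraries. These ratios compare levels per length after the poly-T selection given in the supplementary methods. Whether the selection acted equally on mitochondrial and nuclear mRNAs was not measured.

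With OE-LINC01134 the nuclear subunits stayed at 49.2 to 54.2 FPKM while the mitochondrial mean was 3165 to 3906 FPKM, so that the log2 ratio was 0.40 below blank with no overlap (exact two-sided permutation p = 0.1). Of the 72 nuclear subunits, 0 passed the threshold, where 0.85% of all genes tested did, and their median log2 fold change was -0.06. Without adjustment, 2 were higher and 10 lower at p under 0.05, where 26.3% of all genes tested passed. With siSRSF1-2 both sides were lower: the nuclear subunits were at 41.1 to 42.3 FPKM, the mitochondrial mean at 3809 to 4052 FPKM, and the log2 ratio differed by 0.08 from blank (exact two-sided permutation p = 0.2). Of the 72, 1 fell past the threshold, NDUFC2 of complex I, at 6.24 ± 0.286 FPKM against 15.6 ± 2.76 FPKM (log2 fold change -1.30 ± 0.13, SE, limma adjusted p = 0.0024). The threshold was passed by 4.95% of all genes tested. By the adjusted p alone 42 of the 72 were lower and 1 higher, where 26.8% of all genes tested passed.

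With siSRSF1-3 the nuclear subunits were at 167, 104 and 52.1 FPKM in replicates 1, 2 and 3. The mitochondrial mean was 7217, 4162 and 3875 FPKM, and the log2 ratio was 0.80 below blank with no overlap (exact two-sided permutation p = 0.1). Nearly all of that difference lay in replicates 1 and 2, with log2 ratios of 5.44 and 5.32 against 6.22 in replicate 3 and 6.41 to 6.51 in blank cells. The cytosolic ribosomal protein genes were high in the same 2 libraries. None of the 72 subunits passed the threshold, where 1.26% of all genes tested did, and their median log2 fold change was 0.88. Without adjustment, 19 were higher and 1 lower at p under 0.05, where 28.8% of all genes tested passed. The subunits with the smallest adjusted p were NDUFS4 (1.18, adjusted p = 0.086) and NDUFS7 (1.03, adjusted p = 0.093) in complex I, UQCRFS1 (0.84, adjusted p = 0.145) and UQCRQ (1.20, adjusted p = 0.177) in complex III, COX7A2 (0.95, adjusted p = 0.141) and NDUFA4 (0.92, adjusted p = 0.145) in complex IV, and ATP5MC2 (1.11, adjusted p = 0.132) and ATP5F1D (1.40, adjusted p = 0.152) in complex V. Of the 4 complex II subunits, which have no mitochondrial partner, none passed with any group.

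The genes that copy, read and process the mitochondrial genome did not pass the threshold in any comparison with blank. Of all genes tested, 0.85% to 4.95% did in these comparisons. TFAM, which packages mitochondrial DNA and starts its transcription, was at 22.4 ± 5.33 FPKM in blank cells, 25.2 ± 1.24 with siSRSF1-2, 21.8 ± 5.20 with siSRSF1-3 and 29.7 ± 4.36 with OE-LINC01134. POLRMT, the mitochondrial RNA polymerase, was at 16.7 ± 3.40, 14.1 ± 0.429, 15.3 ± 2.49 and 12.5 ± 3.32 FPKM in the same order. LRPPRC, which stabilises mitochondrial mRNAs, was at 23.8 ± 2.80, 27.8 ± 0.430, 23.8 ± 3.50 and 20.9 ± 0.617 FPKM. None of the 3 passed the threshold, with adjusted p of 0.12 to 0.99 against blank. In blank cells and with OE-LINC01134 the value of POLRMT spread over libraries more than with siSRSF1-2.

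Of the 9 genes of mitochondrial transcription, the 12 of mitochondrial DNA replication and the 25 of mitochondrial RNA processing, none passed the threshold with any group. Among all genes tested, 1.26% passed with siSRSF1-3, 4.95% with siSRSF1-2 and 0.85% with OE-LINC01134. Some log2 fold changes were large without passing, such as -1.55 for POLG, the mitochondrial DNA polymerase (limma adjusted p = 0.178, named after its value was seen), with siSRSF1-3, and 1.13 for MTERF1 (limma adjusted p = 0.064) with OE-LINC01134. By adjusted p alone 8 of these 46 genes passed with siSRSF1-2, where 26.8% of all genes tested did. By adjusted p alone with siSRSF1-2, MTERF1 was higher and MTERF3 lower, LIG3 and TOP1MT were higher, and PDE12, which removes poly(A) tails in mitochondria, and SUPV3L1, the helicase of the mitochondrial degradosome, were higher while RPUSD3 and SLIRP, the partner of LRPPRC, were lower. SLIRP was at 11.7 ± 0.542 FPKM against 20.4 ± 2.92 FPKM (log2 fold change -0.78 ± 0.11, SE, limma adjusted p = 0.0057). With siSRSF1-3 the smallest adjusted p were those of MTERF1 (0.41, adjusted p = 0.282) and TEFM (-0.43, adjusted p = 0.357), TOP1MT (0.79, adjusted p = 0.102) and DGUOK (1.15, adjusted p = 0.126), and FASTK (1.03, adjusted p = 0.102) and SUPV3L1 (0.81, adjusted p = 0.105), each with its log2 fold change. Of 8 regulators of mitochondrial biogenesis, 6 were measured and none passed, the smallest adjusted p with siSRSF1-3 being those of PPARGC1B (-1.42, adjusted p = 0.102) and GABPA (-0.38, adjusted p = 0.219).

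Nuclear copies of mitochondrial genes, which can share reads with the genes on chromosome MT, took 0.014% to 0.042% of reads. Of 472 annotated copies 11 reached a mean of 0.5 FPKM. The highest were MT-ATP6 pseudogene 1 at 185 FPKM, MT-ND2 pseudogene 28 at 137 FPKM and MT-CO1 pseudogene 12 at 19.5 FPKM over all libraries, which lie on chromosome 1. MT-ND2 pseudogene 28 was at 19.4 and 41.3 FPKM in siSRSF1-3 replicates 1 and 2 and at 130 to 206 FPKM in the other 10 libraries, while MT-ND2 itself was at 5547 and 3053 FPKM in those 2 libraries. How reads with more than one match were assigned is not given in the sources used here.

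With siSRSF1-3 the direction of some mRNAs depended on the scale: 6 of 13 were higher than blank as deposited and 1 with FPKM set to the same sum. Both rRNAs were higher on each of the 5 scales tried. FPKM rescaled to each library's own read total moved the median of all genes tested to -0.26 and that of the mitochondrial mRNAs to -0.27, so the 2 stayed together. With OE-LINC01134 the 13 mRNAs and 2 rRNAs were lower on each of the 5 scales tried, with a median of the mRNAs between -0.47 and -0.35.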

How the data were processed

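RNA of 12 U2OS libraries was sequenced as paired-end reads after poly-T selection, according to the supplementary methods (NEBNext), while the labels name a SMARTer kit. The authors deposited FPKM per gene with gene lengths and coordinates, and the aligner, counter and annotation are not given in the sources used here. The labels give mouse as organism, but the identifiers are human, and symbols were matched by full name (224 of 224 list symbols). FPKM times length was a whole multiple of 1 step per library, which gave the reads (26237763 to 32954539 per library, 100% within 0.01 of a whole read).

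log2(FPKM + 0.1) was fitted with limma 3.58.1 in R 4.3.3 (eBayes with trend, Benjamini-Hochberg) on 3 + 3 libraries and 17538 genes with a mean of at least 0.5 FPKM, which included all 37 members. Fold changes are on the log2(FPKM + 0.1) scale. Shares and ratios were compared by exact two-sided permutation. The fit was tested on simulated data in which no library stood apart from its group, so that test does not cover the libraries that did here. The members and lists were chosen with earlier results of these data known. Named genes were SRSF1, the mitochondrial mRNAs and rRNAs, tRNA genes past the threshold and the 3 highest, and list members past the threshold or with the smallest adjusted p. Outside this rule, members of the transcription, replication and RNA processing lists with an adjusted p under 0.05 with siSRSF1-2 were also named. Sequences are not printed, since no human reference was used here. Alternatives were other pseudocounts (1, 0.01), filters and scales, limma's voom, eBayes without trend, one fit over 4 groups, a length trend removed by loess, a replicate block and each library left out. The removal of siSRSF1-3 replicates 1 and 2 together, the length trend for single genes and tRNA genes, and the short nuclear genes were added after seeing the data.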

Additional observations from a re-analysis of the deposited data

Results flagged for a closer look

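Some genes lay above the blank mean in every library of one group and below it in every library of another. The share of all genes that did so was not counted. Between siSRSF1-2 and OE-LINC01134, which were not tested against each other, the log2 differences from the blank mean differed by 1.16 for MT-RNR2, 0.59 for MT-ND4L, 0.49 for MT-ND1, 0.50 for MT-ATP8 and 2.09 for MT-TV, each higher with siSRSF1-2. The tRNA genes MT-TL1, MT-TR, MT-TK, MT-TI, MT-TE and MT-TM also met this rule between these groups, in the same direction. Between siSRSF1-3 and OE-LINC01134, likewise not tested, they differed by 1.30 for MT-RNR2, 1.10 for MT-ND1, 1.47 for MT-RNR1 and 3.36 for MT-TT, each higher with siSRSF1-3.

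Between the siRNAs, MT-ND4L was above the blank mean in the siSRSF1-2 libraries and below it in the siSRSF1-3 libraries, a difference of 2.09, and MT-RNR1 was the reverse, a difference of -0.65 as siSRSF1-2 minus siSRSF1-3. The direct comparison of the siRNAs in limma gave adjusted p of 0.096 for MT-ND4L and 0.208 for MT-RNR1, so neither passed. These groups share the blank libraries. MT-RNR1 was barely above the blank mean in siSRSF1-3 replicate 3, at 844 FPKM.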

How the results depend on the processing

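Of 272 values of the shares, ratios, medians and counts under the alternatives, 240 were classed as kept. That class did not require the same sign of a median or the same count. Between the siRNAs the median of the mRNAs was 0.23 in the main fit and -0.08 by own read total, and was classed as kept. The count of mitochondrial genes past the threshold became 5 with siSRSF1-3, 1 with siSRSF1-2, 0 with OE-LINC01134 and 3 between the siRNAs in one fit over 4 groups. In that fit 13.8%, 1.79%, 3.93% and 15.6% of all genes tested passed, in the same order. With siSRSF1-2 the mitochondrial count was 1 with no filter on low values and 11 with no minimum fold change, where 1% and 26.8% of the genes tested passed. With OE-LINC01134 it was 0 with a pseudocount of 0.01, with no filter, with eBayes without trend and with the replicate block. Of the genes tested, 0.0228% to 0.616% passed in these settings. With each library left out it ran from 0 to 5 with siSRSF1-3 (5 without siSRSF1-3 replicate 3), from 2 to 5 with siSRSF1-2 (5 without blank replicate 1), from 0 to 2 with OE-LINC01134 and from 0 to 8 between the siRNAs (8 without siSRSF1-3 replicate 3). Without siSRSF1-3 replicate 3, 23.9% of all genes tested passed with siSRSF1-3 and 30.6% between the siRNAs. Without blank replicate 1, 6.77% passed with siSRSF1-2 and 5.49% with OE-LINC01134. The causes were not tested.

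The median log2 fold change of the mRNAs became -0.46 with siSRSF1-3, -0.08 with siSRSF1-2 and -0.35 between the siRNAs with FPKM set to the same sum, where the median of all genes moved to -0.43, 0.15 and -0.57, so these shifts followed the scale. With each library left out it ran from -0.31 to 0.12 with siSRSF1-3 and from -0.29 to -0.087 with siSRSF1-2. The MT-ND6 log2 ratio, near 0 in all comparisons, changed sign: with a library left out it ran from -0.076 to 0.11 with siSRSF1-3, from -0.0044 to 0.15 with siSRSF1-2, from -0.012 to 0.14 with OE-LINC01134 and from -0.15 to 0.031 between the siRNAs, where reads in place of FPKM gave 0.020. Between the siRNAs the share of reads ran from -0.548 to 0.300 percentage points and the mRNA to rRNA ratio from -0.013 to 0.11.

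Single-gene log2 fold changes changed sign in 68 of 1186 values, all of genes and comparisons that had not passed the threshold. For siSRSF1-3 against blank, MT-ATP6, MT-CYB and MT-ND6 became -0.22, -0.21 and -0.19 by own read total, -0.24, -0.22 and -0.20 by nuclear read total, and -0.41, -0.39 and -0.37 by equal FPKM sum, where MT-CO2 and MT-CO3 became -0.016 and -0.075. MT-ND3 was 0.0070 by voom. Without siSRSF1-3 replicates 1 and 2, MT-CO2, MT-CO3, MT-ATP6, MT-CYB, MT-ND6 and MT-ATP8 became -0.27, -0.23, -0.27, -0.054, -0.32 and 0.041. Leaving out 1 library gave -0.26 to 0.19 for MT-ATP6, -0.27 to 0.21 for MT-ND3, -0.31 to 0.12 for MT-ND2, -0.13 to 0.19 for MT-CYB and -0.31 to 0.27 for MT-ND6. For siSRSF1-2, MT-CYB became 0.020 (own total), 0.0088 (nuclear total) and 0.11 (equal sum), and MT-RNR1 0.037 (equal sum), with ranges of -0.062 to 0.0051 and -0.34 to 0.040 over single libraries left out. Between the siRNAs, MT-CO1, MT-ATP6, MT-ND2, MT-RNR2, MT-CYB and MT-ND6 became -0.29, -0.032, -0.080, -0.17, -0.23 and -0.020 by own total, -0.29, -0.033, -0.081, -0.17, -0.23 and -0.021 by nuclear total, -0.57, -0.31, -0.35, -0.45, -0.50 and -0.29 by equal sum, and -0.059, -0.033, -0.022, -0.054, -0.029 and -0.11 without siSRSF1-3 replicates 1 and 2. Leaving out 1 library gave -0.079 to 0.067 for MT-CO1, -0.025 to 0.43 for MT-ATP6, -0.30 to 0.12 for MT-ND4, -0.052 to 0.38 for MT-ND2, -0.032 to 0.23 for MT-RNR2, -0.11 to 0.21 for MT-CYB and -0.10 to 0.48 for MT-ND6.

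Replicate numbers did not pair the libraries: correlations of the deviations of same-numbered libraries lay between -0.081 and 0.042. Among all genes tested, the counts of 221 (siSRSF1-3), 149 (OE-LINC01134) and 15 (between the siRNAs) became 2422, 689 and 2731 in one fit over 4 groups, while 868 with siSRSF1-2 became 314. With the replicate block 3 mitochondrial genes were called with siSRSF1-2 and 0 in the other comparisons, where the block left 0 calls among all genes with siSRSF1-3 and 4 with OE-LINC01134. tRNA genes with few reads, such as MT-TV, limit the precision.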
